A study of Mus musculus with 9 samples.

Results

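The Hox cluster genes of the mouse encode homeodomain transcription factors and lie in 4 clusters, HoxA, HoxB, HoxC and HoxD. Every gene whose symbol is Hox, a cluster letter and a paralog number was taken, which gave 39 of the 23038 genes measured. HoxA (chromosome 6, 52155367 to 52260880) held 11 of them, HoxB (chromosome 11, 96194316 to 96368254) 10, HoxC (chromosome 15, 102921131 to 103036856) 9 and HoxD (chromosome 2, 74668225 to 74765142) 9, in GRCm38.p6 coordinates. Within the family, members were taken by gene name alone and by no measured value. The family itself was chosen with earlier results of these data known.

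Transcripts were measured by bulk RNA-seq in sensory neurons sorted by fluorescence from dissociated dorsal root ganglia (DRG) of neonatal mice of both sexes, on a mixed C57/Sv129 background. There were 3 groups with 3 samples each. The TrkC:GFP group came from mice with a bacterial artificial chromosome that drives GFP as TrkC does, and its labels name proprioceptors and slowly adapting mechanoreceptors (SA-LTMRs). Its samples were taken at postnatal days 6, 2 and 1 from 4, 2 and 4 animals. Rx3+/+;PV:tdT neurons (below, wild-type PV) were wild type for Runx3 and were marked with tdTomato through Cre driven by the parvalbumin (PV) gene. Their labels name proprioceptors and rapidly adapting mechanoreceptors (RA-LTMRs), and the samples came from days 6, 4 and 3 and from 4, 3 and 3 animals. Rx3-/-;PV:tdT neurons (below, mutant PV) were marked the same way in Runx3 mutants, which lose their proprioceptors, and their labels name RA-LTMRs only. Their samples came from days 3, 0 and 0 and from 1, 1 and 4 animals. The labels do not give the axial levels of the ganglia. Reporter line, age, number of animals and Runx3 genotype differ between groups and cannot be told apart. The genotype labels name the reporter allele as Ai14 and the design text as Ai9.

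Hox proteins give cells along the head-to-tail axis their positional identity. Within a cluster the genes are switched on in the order in which they lie: low paralog numbers begin nearer the head and high numbers nearer the tail, and genes of the same number in different clusters are close relatives. In the spinal cord and its ganglia this code helps to set which neurons form at limb and trunk levels, and the proteins bind DNA together with cofactors of the Pbx and Meis families.

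Levels are given in RPKM, read numbers scaled to the gene's length in kilobases and to the library's total. The deposited group RPKM is the mean of 3 library values, each computed after 1 read had been added, so that a gene without reads stands a little above 0. From the digits of that mean the reads of each library were recovered for 39 of 39 members. Libraries are named by depth, since the recovery does not tie them to a replicate number; their totals were 12225112, 10536972 and 7779765 reads in TrkC:GFP, 13737224, 12150764 and 11567681 in wild-type PV and 12847709, 12171315 and 4510352 in mutant PV. Values per library below run from the deepest to the shallowest.

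The libraries were checked once for what else they held. The targeted gene Runx3 had a group RPKM of 33.8 in TrkC:GFP, 30.4 in wild-type PV and 13.5 in mutant PV, and the sources used here do not say which exons the mutant allele lacks. All 6 of 6 proprioceptor markers were higher in both other groups than in mutant PV. The 6 include Runx3 and Ntrk3, the TrkC gene whose reporter sorted the TrkC:GFP group, so the design set part of this. The shares of all genes called higher were 5.87% in TrkC:GFP and 7.82% in wild-type PV. Sensory neuron markers summed to 4559, 5086 and 4029 RPKM in TrkC:GFP, wild-type PV and mutant PV, but single markers went different ways. Against mutant PV, 0 of the 7 were higher and 2 lower in TrkC:GFP, where 10.1% of all genes were called. In wild-type PV 1 was higher and 3 were lower, where 16.4% were called. Snap25 was at 2802, 3537 and 1807 RPKM in the 3 groups and Prph at 351, 358 and 833. The 8 kidney markers measured had 368, 405 and 17 reads in the mutant PV libraries, or 28.6, 33.3 and 3.77 CPM (reads scaled to the library total), against 3.60 to 8.54 CPM in TrkC:GFP and 1.73 to 3.42 in wild-type PV. In the mutant PV libraries Umod, a kidney tubule gene, had 62, 67 and 0 reads and Nphs1, a podocyte gene, 122, 94 and 0, while Lhx1 and Pax2 had none. The shallowest mutant PV library, which lacks Umod and Nphs1 reads, is therefore pointed out beside the sums and members below; the regulators, cofactors and flanking genes have group values only, and the part of the kidney reads in these was not tested. Summed fibroblast markers were at 40.2, 35.4 and 42.1 CPM in mutant PV, within the 19.6 to 58.2 of the other groups, but single markers moved in opposite directions: Mgp had 108, 126 and 2 reads in mutant PV and 4 or fewer in each other library, and Dcn had 0, 3 and 2 reads in mutant PV and 15 to 117 elsewhere. In wild-type PV against mutant PV 4 of the 7 fibroblast markers were higher and 2 lower, where 16.4% of all genes were called. The part of the fibroblast markers in the Hox results was not tested.

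The summed Hox level of mutant PV, 80.8 to 131 RPKM in its libraries, overlapped both other groups, and its composition differed. Every TrkC:GFP library, at 95.1 to 119 RPKM, lay above every wild-type PV library, at 88.3 to 93.5. The 39 members summed to 104 ± 12.8 RPKM (SD, n = 3) in TrkC:GFP, 91.0 ± 2.63 in wild-type PV and 109 ± 25.6 in mutant PV. HoxC genes made up 50.3% ± 2.86 of this sum in TrkC:GFP and 46.7% ± 3.09 in wild-type PV, but 6.10% ± 1.17 in mutant PV. HoxB genes made up 16.9% ± 1.94 and 21.9% ± 0.797 in the first 2 groups and 48.5% ± 0.809 in mutant PV. Neither share overlapped between mutant PV and the other groups.

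In absolute terms the HoxC sum was 45.0, 52.2 and 60.1 RPKM in the TrkC:GFP libraries, 41.0, 47.0 and 39.6 in wild-type PV and 9.62, 5.79 and 4.78 in mutant PV. The HoxB sum ran the other way, at 17.1, 14.5 and 21.5 RPKM in TrkC:GFP, 20.6, 20.8 and 18.6 in wild-type PV and 63.5, 54.7 and 39.8 in mutant PV. Within each library the ratio of HoxC to HoxB was 2.63 to 3.61 in TrkC:GFP, 1.99 to 2.26 in wild-type PV and 0.106 to 0.152 in mutant PV. The library with few kidney reads had a ratio of 0.120, inside the range of the other mutant PV libraries. The HoxA sum was 22.4 ± 4.32, 22.8 ± 3.59 and 39.6 ± 13.3 RPKM in the 3 groups, and its value of 24.4 in the shallowest mutant PV library fell among those of the other groups. The part that the kidney reads have in the cluster sums, in their ratios and in the members below was not tested. The HoxD sum was the smallest in TrkC:GFP and wild-type PV, at 11.6 ± 1.71 and 5.68 ± 1.42 RPKM, and was 9.87 ± 1.66 in mutant PV. In bulk samples fewer cells of a type and less RNA per cell cannot be told apart, and this holds for every level given here.

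**Figure D1:**
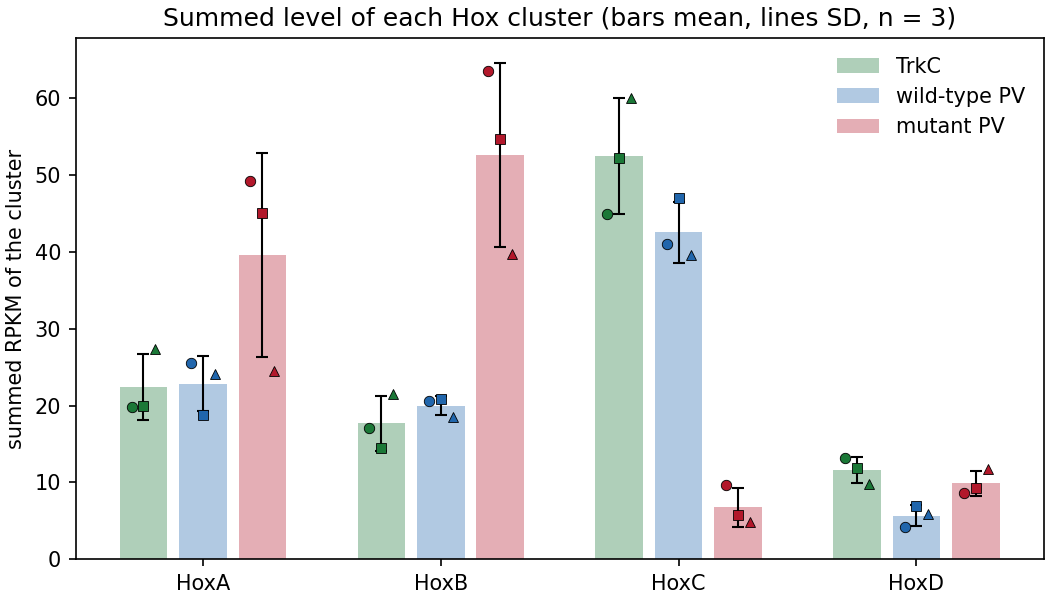
Summed RPKM of the members of each Hox cluster; bars are group means of 3 libraries, lines 1 SD, and points the libraries (circle deepest, square middle, triangle shallowest). HoxC is lowest and HoxB highest in mutant PV, with no overlap between its libraries and those of the other groups.

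By paralog number, genes 5 to 9 carried most of the sum in every group. Their share was 64.1% ± 2.30 in TrkC:GFP, 74.5% ± 5.42 in wild-type PV and 82.2% ± 3.24 in mutant PV. Genes 10 to 13 summed to 18.5 ± 1.42, 14.5 ± 5.32 and 3.74 ± 1.58 RPKM in the same order, and HoxC genes supplied 15.2, 12.2 and 1.15 RPKM of these sums. The shallowest mutant PV library had 63.3 RPKM for genes 5 to 9, below the means of 67.0 in TrkC:GFP and 67.7 in wild-type PV, while the mean of the 3 mutant PV libraries was 89.9. Genes 1 to 4 summed to 18.7 ± 4.02 RPKM in TrkC:GFP, 8.83 ± 0.441 in wild-type PV and 15.1 ± 3.20 in mutant PV.

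Of the 39 members, 25 reached 1 RPKM in at least 1 group and 14 did not. Hoxa13, Hoxb13, Hoxd12 and Hoxd13, tail-end genes of their clusters, had no read in any of the 9 libraries. The most abundant member was Hoxc8 in TrkC:GFP and wild-type PV, with Hoxc10 next. In mutant PV the order began with Hoxb7, Hoxa7 and Hoxb8, at group RPKM of 16.2, 15.6 and 14.3, which their SDs of 2.85, 5.72 and 4.51 do not separate.

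**Figure D2:**
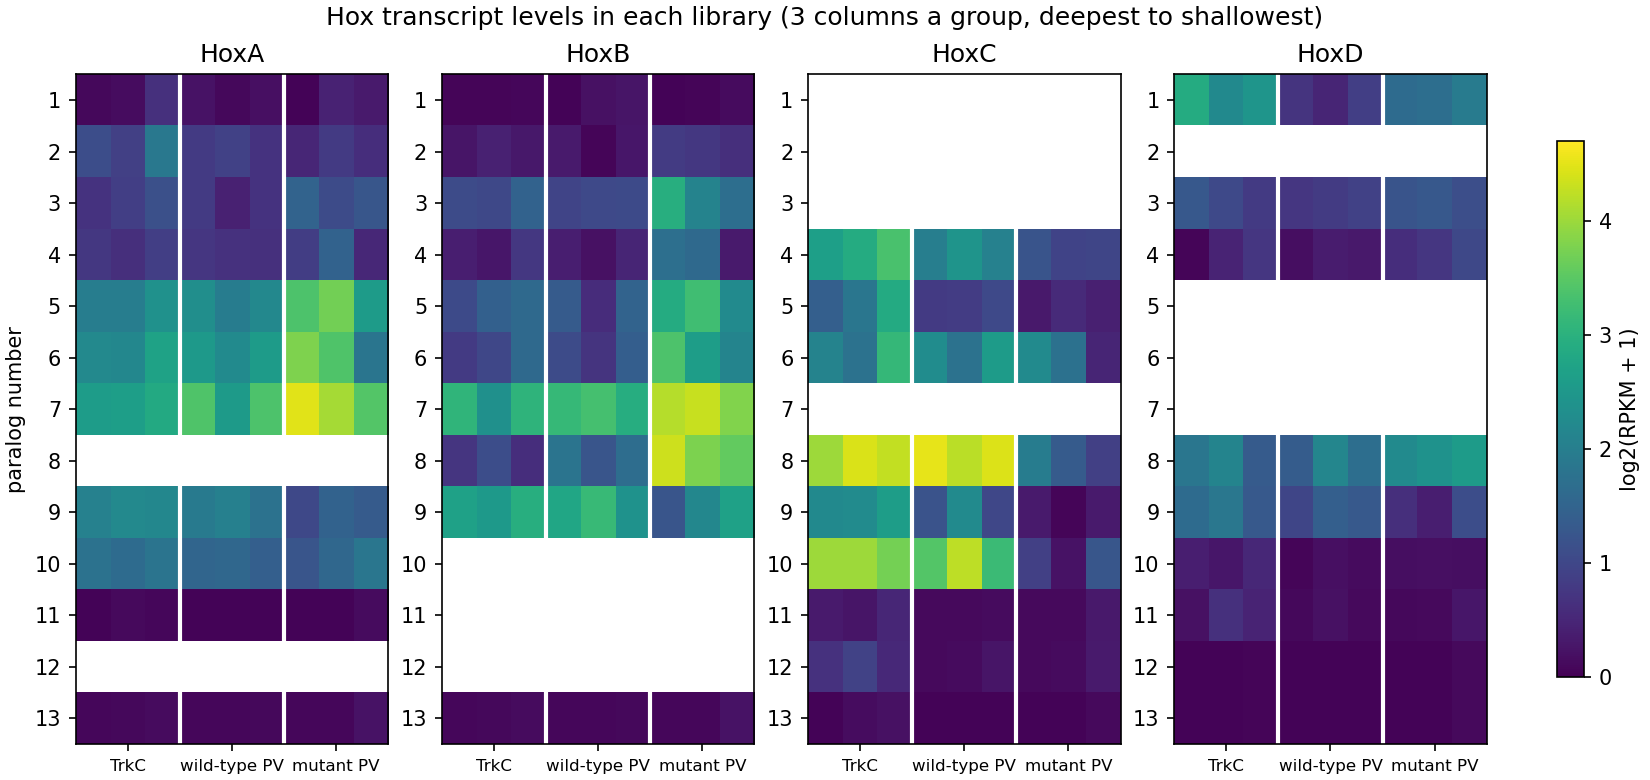
Level of each member on a log2(RPKM + 1) colour scale, by cluster (panels) and paralog number (rows), with 3 library columns a group from deepest to shallowest; white cells mark paralog numbers with no gene. Bright cells lie in HoxC rows 8 and 10 in TrkC:GFP and wild-type PV. In mutant PV they lie in HoxA rows 5 to 7 and HoxB rows 5 to 8.

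Group differences were taken from the authors' deposited tables, with a gene called where the deposited edgeR p-value, adjusted by the Benjamini-Hochberg method over all 23038 genes, was under 0.05. No standard error is given there. The p-values reflect how much these particular samples vary, and some samples were single animals. TrkC:GFP and wild-type PV were each compared with mutant PV, so these 2 comparisons share the mutant libraries.

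Against mutant PV, 14 of the 39 members were called in TrkC:GFP, 7 higher and 7 lower, where 10.1% of all genes were called (5.87% higher, 4.2% lower). The 6 HoxC genes Hoxc4, Hoxc5, Hoxc8, Hoxc9, Hoxc10 and Hoxc12 were higher along with Hoxa9. All 5 HoxB genes called, Hoxb3 and Hoxb5 to Hoxb8, were lower, as were Hoxa5 and Hoxa7. No HoxD gene was called by edgeR, where 3 had an unadjusted p under 0.05, and 25 members in all did not pass the test. The median log2 fold change over the 39 members was 0.27, and over all genes 0.

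In wild-type PV against mutant PV, 14 of the 39 were called, 4 higher and 10 lower, where 16.4% of all genes were called (7.82% higher, 8.57% lower). The higher genes were Hoxc4, Hoxc8, Hoxc9 and Hoxc10. The lower ones were Hoxb3 to Hoxb8, Hoxa3, Hoxa5, Hoxa7 and Hoxd1. The members' median was -0.06 and that of all genes 0. A joint comparison of TrkC:GFP and wild-type PV with mutant PV called 16 members, 7 higher and 9 lower, against 16.8% of all genes (8.82% higher, 7.96% lower). There too every HoxC gene called was higher and every HoxB gene called was lower.

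**Figure D3:**
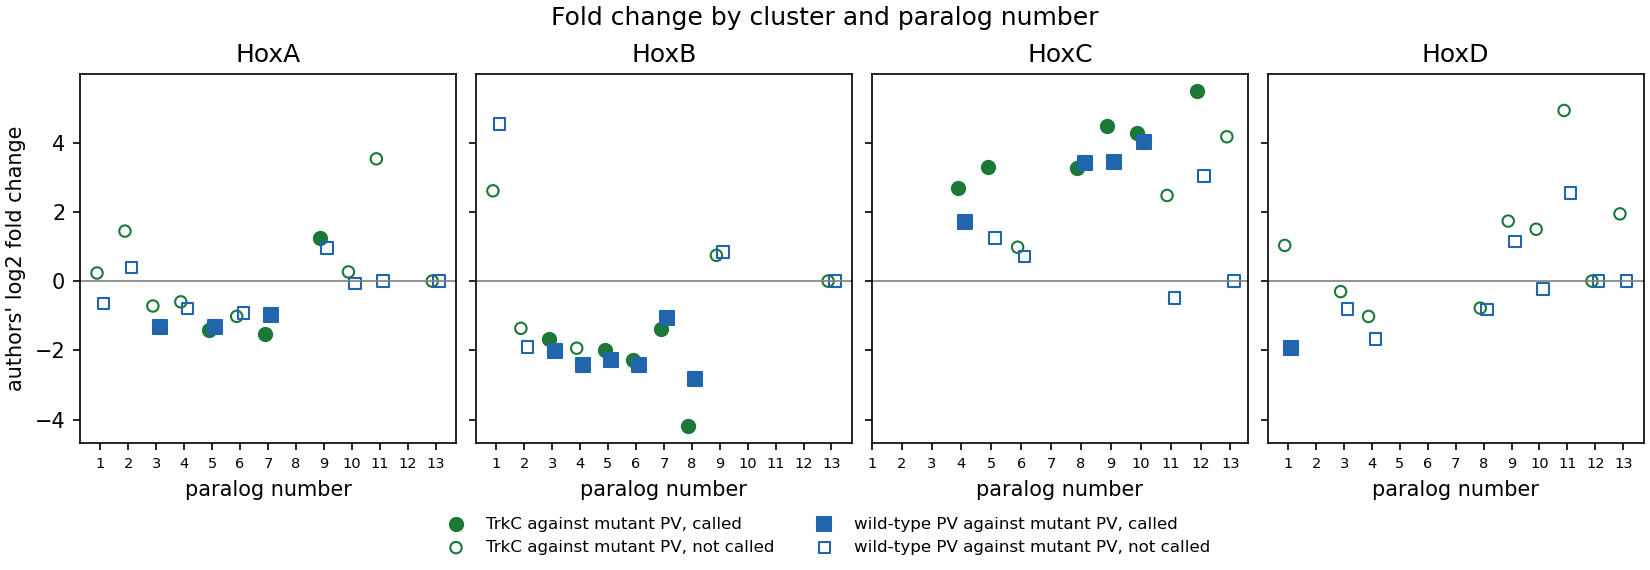
The authors' log2 fold changes against mutant PV by cluster (panels) and paralog number, for TrkC:GFP (green circles) and wild-type PV (blue squares); filled symbols are called at an adjusted p under 0.05. Filled HoxC symbols all lie above 0 and filled HoxB symbols all below it.

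Hoxc8, which in the mouse helps to pattern the brachial spinal cord and its motor neurons, had 15.1, 20.6 and 18.3 RPKM in the TrkC:GFP libraries, 22.0, 17.5 and 20.8 in wild-type PV and 2.92, 1.56 and 0.842 in mutant PV. These values rest on 437, 514 and 337 reads, 715, 504 and 570 reads, and 88, 44 and 8 reads. Every mutant PV library was below every other library, and the other 2 groups overlapped. The ratio of group RPKM to mutant PV was 10.2 for TrkC:GFP and 11.3 for wild-type PV. In the authors' deposited table the log2 fold changes were 3.27 (adjusted p = 1.7e-16 by edgeR) and 3.42 (adjusted p = 2e-22 by edgeR).

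Hoxc10, a gene active at lumbar levels, was at 15.1, 15.1 and 12.2 RPKM in TrkC:GFP, 9.86, 17.9 and 8.22 in wild-type PV and 0.854, 0.172 and 1.39 in mutant PV. Hoxc9, which in the mouse sets the thoracic motor columns, was at 3.66, 3.81 and 5.16, then 1.31, 3.78 and 1.01, and 0.272, 0.0478 and 0.258 RPKM in the same order. For both genes the mutant PV libraries lay below all others, and TrkC:GFP overlapped wild-type PV. The mutant PV values of Hoxc9 rest on 5, 0 and 1 reads. The authors' deposited table gives log2 fold changes against mutant PV for Hoxc10 of 4.28 in TrkC:GFP (adjusted p = 1.6e-16 by edgeR) and 4.03 in wild-type PV (adjusted p = 1.6e-12 by edgeR). For Hoxc9 the values in the authors' deposited table are 4.49 (adjusted p = 2.3e-10 by edgeR) and 3.44 (adjusted p = 0.00031 by edgeR). Exons of Hoxc10 and Hoxc5 overlap on the same strand in the annotation, so reads could be split between them.

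The head-side HoxC genes also differed between TrkC:GFP and wild-type PV. Hoxc4, the first gene of the cluster from the head side, had 5.26, 6.45 and 9.24 RPKM in TrkC:GFP, 3.01, 4.41 and 3.19 in wild-type PV and 1.33, 0.914 and 0.969 in mutant PV, so the 3 groups did not overlap. Hoxc5, which in the mouse acts with Hoxa5 in phrenic motor neurons, had 1.68, 2.61 and 6.36 RPKM, then 0.747, 0.784 and 1.04, and 0.257, 0.482 and 0.325, again without overlap. The TrkC:GFP libraries of Hoxc5 differed among themselves, and the shallowest was the highest.

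Against mutant PV, the authors' deposited table gives Hoxc4 log2 fold changes of 2.68 in TrkC:GFP (adjusted p = 1.6e-09 by edgeR) and 1.70 in wild-type PV (adjusted p = 0.00016 by edgeR). Hoxc5 had 3.29 in TrkC:GFP in the authors' deposited table (adjusted p = 5.8e-06 by edgeR) and 1.25 in wild-type PV, which did not pass the test (adjusted p = 0.096 by edgeR). The direct comparison of wild-type PV with TrkC:GFP in the authors' deposited table put Hoxc4 lower by a log2 fold change of -0.97 (adjusted p = 0.018 by edgeR) and Hoxc5 by -2.03 (adjusted p = 0.0013 by edgeR).

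Hoxc12, which lies near the tail end of the cluster, had 5, 7 and 2 reads in TrkC:GFP, 0, 0 and 1 in wild-type PV and none in mutant PV. On the CPM scale it was at least 4.51-fold higher in TrkC:GFP than in mutant PV, with 3 reads over the mutant group as the floor. The authors' deposited table calls it with a log2 fold change of 5.49 (adjusted p = 0.015 by edgeR), a size that depends on the prior count used where a group has no reads. Hoxc6, an upper limb-level gene, had 3.27, 2.42 and 7.79 RPKM in TrkC:GFP, 3.88, 2.39 and 4.98 in wild-type PV and 3.77, 2.39 and 0.403 in mutant PV. Its groups overlapped, and the authors' deposited table gives 0.98 and 0.71 against mutant PV, neither past the test (adjusted p = 0.45 and 0.47 by edgeR). Hoxc11 and Hoxc13, at 2 reads or fewer in each library, were not called either.

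**Figure D4:**
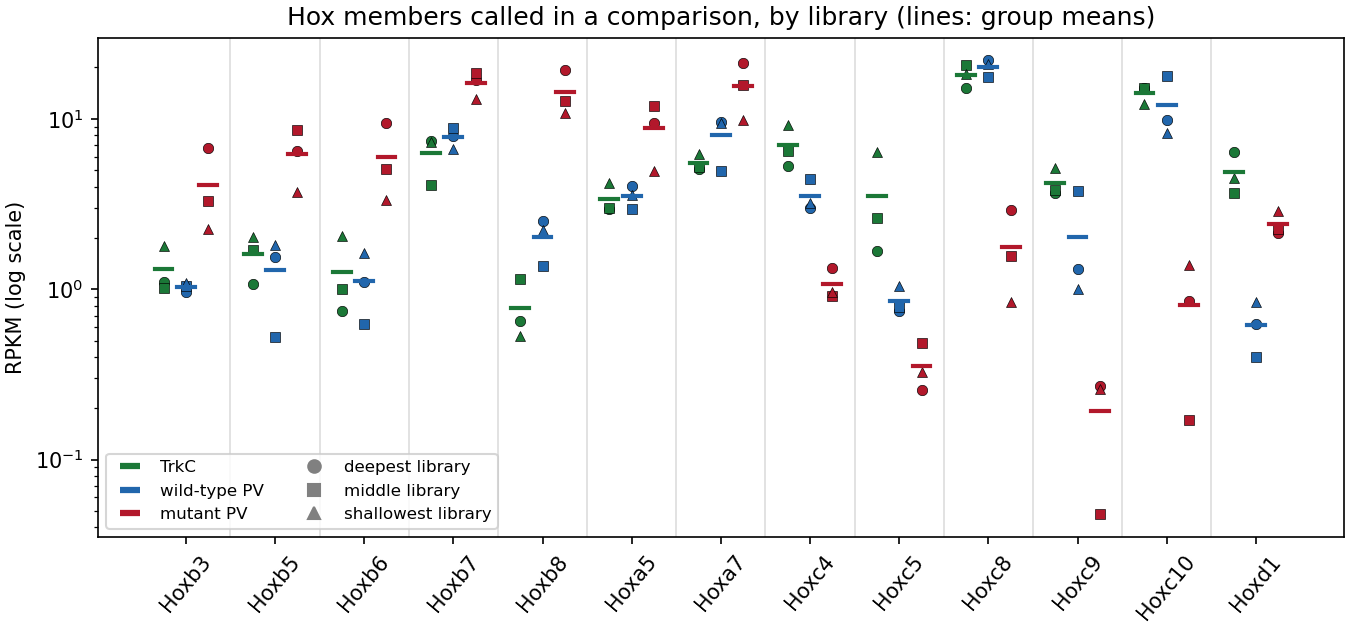
RPKM per library (symbols by depth) and group means (lines) on a log axis, for 13 members called in a comparison of 2 groups. Hoxa3, Hoxa9, Hoxb4 and Hoxc12, also called in such a comparison, are left out for space. The mutant PV points lie above the others for Hoxb3 to Hoxb8 as drawn and for Hoxa5 and Hoxa7, and below them for Hoxc4 to Hoxc10.

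Hoxb8, which in the mouse helps to organise the dorsal spinal cord and its sensory input, was the HoxB gene with the widest range. It had 0.649, 1.15 and 0.535 RPKM in TrkC:GFP, 2.50, 1.37 and 2.22 in wild-type PV and 19.4, 12.7 and 10.8 in mutant PV. The reads behind these values were 20, 31 and 10, then 90, 43 and 67, and 658, 408 and 128. All 3 groups were separate, with TrkC:GFP lowest and mutant PV highest, and the mutant library with few kidney reads was above every library of the other groups. Group RPKM in mutant PV was 18.4 times that in TrkC:GFP and 7.04 times that in wild-type PV.

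The authors' deposited table gives Hoxb8 a log2 fold change against mutant PV of -4.19 in TrkC:GFP (adjusted p = 2.8e-24 by edgeR) and -2.82 in wild-type PV (adjusted p = 1.6e-16 by edgeR). It was also the only member called higher in wild-type PV than in TrkC:GFP, at 1.37 in the authors' deposited table (adjusted p = 0.02 by edgeR). Set against both PV groups together, TrkC:GFP had 2 members called where 0.456% of all genes were (0.169% higher, 0.286% lower): Hoxb8 lower and Hoxc5 higher. Hoxc8 and Hoxb8 share a paralog number and traded places. The ratio of Hoxc8 to Hoxb8 RPKM within a library was 18.0 to 34.3 in TrkC:GFP, 8.78 to 12.8 in wild-type PV and 0.0779 to 0.151 in mutant PV.

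The promoters of Hoxb8, Hoxc4 and Hoxd1 are shown because these genes moved in different directions: Hoxb8 was lower than mutant PV in both other groups, Hoxc4 higher in both, and Hoxd1 lowest in wild-type PV. Each line is the 250 bases before a RefSeq start, on the plus strand of GRCm38.p6; for Hoxb8 and Hoxc4 the gene's span begins further upstream. Capitals mark matches to any of 5 motifs on either strand. The core promoter motif searched was TATAAA. The upstream motif bound by the nuclear factor Y complex was searched as CCAAT. The composite site for Pbx with a Hox protein was TGATNNAT, the homeodomain core was TAATTA and the Meis core was TGACAG.
Hoxb8 chr11:96281655-96281904: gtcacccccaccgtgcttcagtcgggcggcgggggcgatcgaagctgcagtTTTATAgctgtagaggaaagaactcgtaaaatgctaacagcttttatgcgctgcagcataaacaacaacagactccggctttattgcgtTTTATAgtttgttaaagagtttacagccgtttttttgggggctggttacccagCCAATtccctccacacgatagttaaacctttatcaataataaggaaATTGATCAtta
Hoxc4 chr15:103034145-103034394: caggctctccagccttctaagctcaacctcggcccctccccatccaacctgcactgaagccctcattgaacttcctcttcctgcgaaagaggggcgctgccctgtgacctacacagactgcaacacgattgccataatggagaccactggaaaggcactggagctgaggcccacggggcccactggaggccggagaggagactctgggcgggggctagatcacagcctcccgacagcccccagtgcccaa
Hoxd1 chr2:74762730-74762979: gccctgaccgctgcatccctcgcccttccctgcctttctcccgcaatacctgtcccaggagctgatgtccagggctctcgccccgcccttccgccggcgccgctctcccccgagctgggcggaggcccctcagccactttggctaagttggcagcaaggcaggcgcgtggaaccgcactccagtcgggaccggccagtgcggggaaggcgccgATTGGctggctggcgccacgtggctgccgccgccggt

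In these windows Hoxb8 had 44.4% G and C, 1 TGATNNAT match 11 bases before the start, 2 TATAAA matches and 1 CCAAT match. Hoxc4 had 62% G and C and none of the 5 motifs, and Hoxd1 had 71.6% G and C, 24 CpG dinucleotides and 1 CCAAT match 37 bases before the start. Windows were at hand for 22 of the 39 members, with 24 starts. TGATNNAT was in 4 of the 24 and in 7.68% of 32851 promoters of all genes. CCAAT was in 14 of the 24 and in 33.8% of all, TATAAA in 4 and 12.4%, TAATTA in 2 and 4.84%, and TGACAG in 2 and 15.9%. These matches are a description of the letters alone.

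The other HoxB genes from Hoxb3 to Hoxb7 were also highest in mutant PV. Hoxb5, which acts in neural crest and lung development, had 1.08, 1.70 and 2.03 RPKM in TrkC:GFP, 1.54, 0.521 and 1.82 in wild-type PV and 6.45, 8.58 and 3.74 in mutant PV. Hoxb6, active in trunk and limb-level mesoderm, had 0.743, 1.01 and 2.04, then 1.10, 0.623 and 1.63, and 9.42, 5.10 and 3.35. For both genes each mutant PV library lay above every library of the other groups, and those groups overlapped.

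For Hoxb5 the authors' deposited table gives log2 fold changes against mutant PV of -1.99 in TrkC:GFP (adjusted p = 0.00033 by edgeR) and -2.28 in wild-type PV (adjusted p = 4.3e-05 by edgeR). For Hoxb6 they are -2.28 and -2.43 in the authors' deposited table (adjusted p = 0.0015 and 7e-05 by edgeR). Hoxb3, a hindbrain and pharyngeal patterning gene, had 1.10, 1.02 and 1.80 RPKM, then 0.959, 1.04 and 1.09, and 6.76, 3.29 and 2.26, with the mutant PV libraries apart from the rest. Its log2 fold changes in the authors' deposited table were -1.67 (adjusted p = 0.0045 by edgeR) and -2.01 (adjusted p = 3e-05 by edgeR). An antisense gene overlaps exons of Hoxb3 and another one those of Hoxb5, and the sources used here do not say whether reads were counted by strand.

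Hoxb7, a trunk-level gene, had the highest mean of the HoxB genes in every group, with 7.41, 4.11 and 7.29 RPKM in TrkC:GFP, 7.92, 8.88 and 6.61 in wild-type PV and 17.0, 18.6 and 13.1 in mutant PV. Its mutant PV libraries stood above the rest, and the authors' deposited table gives -1.38 (adjusted p = 0.0011 by edgeR) and -1.07 (adjusted p = 0.0013 by edgeR). Hoxb4, a hindbrain and blood stem cell gene, had 0.319, 0.222 and 0.701 RPKM, then 0.312, 0.160 and 0.404, and 2.27, 2.05 and 0.259. Its shallowest mutant PV library, at 2 reads, lay among the other groups. The authors' deposited table calls it lower in wild-type PV, at -2.42 (adjusted p = 0.0054 by edgeR), and not in TrkC:GFP, at -1.94 (adjusted p = 0.09 by edgeR). With the shallowest library standing alone for mutant PV, the Hoxb4 difference between wild-type and mutant PV turned from -0.97 to 0.04 on the log2(RPKM + 1) scale.

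Hoxb9, Hoxb2, Hoxb1 and Hoxb13 were not called in TrkC:GFP or in wild-type PV against mutant PV. Hoxb9 had 5.49, 4.78 and 6.67 RPKM in TrkC:GFP, 5.88, 7.93 and 4.29 in wild-type PV and 1.36, 3.53 and 5.42 in mutant PV, and its groups overlapped. The authors' deposited table gives it 0.74 and 0.84 (adjusted p = 0.41 and 0.2 by edgeR). Hoxb2, a hindbrain patterning gene, had 0.201, 0.350 and 0.237 RPKM in TrkC:GFP, 0.268, 0.0505 and 0.212 in wild-type PV and 0.764, 0.706 and 0.544 in mutant PV, whose libraries lay above all others. The authors' deposited table gives it -1.37 and -1.90 (adjusted p = 0.33 and 0.058 by edgeR), and calls it lower in the joint comparison with mutant PV, at -1.63 (adjusted p = 0.029 by edgeR). Hoxb1 had 0, 3 and 4 reads in wild-type PV and none in the other groups.

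In HoxA the genes Hoxa5 and Hoxa7 were higher in mutant PV. Hoxa5, which is needed in phrenic motor neurons and lung, had 2.96, 2.98 and 4.18 RPKM in TrkC:GFP, 4.03, 2.94 and 3.59 in wild-type PV and 9.50, 11.9 and 4.96 in mutant PV. Hoxa7, a trunk-level gene whose exons overlap those of an antisense transcript, had 5.06, 5.22 and 6.24, then 9.59, 4.93 and 9.46, and 21.3, 15.7 and 9.88. The lowest mutant PV library of each gene was its shallowest, and it lay only a little above the highest library of the other groups.

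The authors' deposited table gives Hoxa5 log2 fold changes against mutant PV of -1.40 in TrkC:GFP (adjusted p = 0.0059 by edgeR) and -1.34 in wild-type PV (adjusted p = 0.002 by edgeR). Hoxa7 is at -1.52 (adjusted p = 7.7e-05 by edgeR) and -0.98 (adjusted p = 0.021 by edgeR) in the authors' deposited table. Hoxa3, a hindbrain and pharyngeal gene, had 0.744, 0.356 and 0.612 RPKM in wild-type PV and 1.81, 1.10 and 1.39 in mutant PV, without overlap. Its log2 fold change there, -1.32, is from the authors' deposited table (adjusted p = 0.046 by edgeR). In TrkC:GFP it had 0.611, 0.821 and 1.21 RPKM, which overlapped mutant PV. The log2 fold change was -0.72 in the authors' deposited table and did not pass the test (adjusted p = 0.59 by edgeR). Antisense transcripts overlap several of its exons.

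Hoxa9, active at trunk and tail levels, went the other way. It had 3.17, 3.63 and 3.51 RPKM in TrkC:GFP, 2.82, 3.15 and 2.44 in wild-type PV and 1.03, 1.77 and 1.56 in mutant PV, and the mutant PV libraries lay below all others. The authors' deposited table calls it higher in TrkC:GFP than in mutant PV, at 1.25 (adjusted p = 0.036 by edgeR), and not in wild-type PV, at 0.96 (adjusted p = 0.084 by edgeR). Hoxa10, the next gene toward the tail, lay between 1.36 and 2.61 RPKM in the 9 libraries and was not called.

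Hoxd1, which in the mouse shapes the axons of nociceptive sensory neurons, was the HoxD gene called in comparisons of 2 groups. It had 6.41, 3.67 and 4.49 RPKM in TrkC:GFP, 0.626, 0.398 and 0.836 in wild-type PV and 2.13, 2.25 and 2.86 in mutant PV. The reads were 145, 71 and 64, then 15, 8 and 17, and 50, 50 and 23. The 3 groups did not overlap, with wild-type PV lowest and mutant PV between the others. Wild-type PV was below TrkC:GFP by -2.97 on the log2 scale in the authors' deposited table (adjusted p = 6.2e-12 by edgeR) and below mutant PV by -1.94 (adjusted p = 0.00085 by edgeR). TrkC:GFP against mutant PV was at 1.03 in the authors' deposited table and did not pass the test (adjusted p = 0.1 by edgeR).

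The other HoxD genes were not called in any of these 3 comparisons. Hoxd9 had 2.14, 2.62 and 1.47 RPKM in TrkC:GFP, 0.971, 1.69 and 1.48 in wild-type PV and 0.556, 0.313 and 1.16 in mutant PV. Its log2 fold change in TrkC:GFP against mutant PV was 1.73 in the authors' deposited table (adjusted p = 0.052 by edgeR). In the joint comparison with mutant PV, where Hoxd1 was not called, Hoxd9 was higher at 1.48 in the authors' deposited table (adjusted p = 0.033 by edgeR). Hoxd8 was at 1.53 to 3.47 RPKM in the first 2 groups and at 3.77, 4.27 and 4.98 in mutant PV, which put it just above them without a call (-0.78 and -0.82 in the authors' deposited table, adjusted p = 0.36 and 0.19 by edgeR). Hoxd3 and Hoxd4 overlap each other and further transcripts, so their values, at most 1.46 and 1.03 RPKM in a library, are uncertain.

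Between wild-type PV and TrkC:GFP 4 of the 39 members were called, where 2.78% of all genes were (0.699% higher, 2.08% lower): Hoxb8 was higher and Hoxc4, Hoxc5 and Hoxd1 were lower in wild-type PV. The members' median log2 fold change was -0.33 and that of all genes -0.03. Hoxa9 and Hoxb4, each called against mutant PV in 1 of the groups only, did not pass the test between wild-type PV and TrkC:GFP, at -0.29 and -0.45 in the authors' deposited table (adjusted p = 0.81 and 1 by edgeR).

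Of the genes that act with Hox proteins, 10 TALE family genes were measured. Meis1, a cofactor with a role in the target innervation of touch neurons in the mouse, was at 0.260 RPKM in TrkC:GFP, 0.604 in wild-type PV and 4.40 in mutant PV as group values. The authors' deposited table gives log2 fold changes against mutant PV of -4.04 (adjusted p = 2.1e-24 by edgeR) and -2.85 (adjusted p = 3.2e-18 by edgeR). Its relative Meis2 went the other way, at 40.3, 32.3 and 13.1 RPKM, with 1.62 and 1.31 in the authors' deposited table (adjusted p = 0.00044 and 0.0032 by edgeR).

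In TrkC:GFP against mutant PV 3 of the 10 TALE genes were higher and 2 lower, where 10.1% of all genes were called. Meis3 and Pknox1 were among the higher ones beside Meis2. In wild-type PV against mutant PV 4 were higher and 3 lower, where 16.4% of all genes were called. Pbx3 and Pknox2 were added in these directions. Between wild-type PV and TrkC:GFP 1 was called, Pbx4, which was lower, where 2.78% of all genes were called. The list medians were 0.30, -0.25 and -0.16.

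Among 29 measured regulators of Hox clusters, from Cdx factors and retinoid genes to Polycomb and Trithorax genes, 3 were higher and 1 lower in TrkC:GFP than in mutant PV, where 10.1% of all genes were called. In wild-type PV 4 were higher and 3 lower, where 16.4% of all genes were called, and none was called between wild-type PV and TrkC:GFP in the authors' deposited edgeR test, where 7 had an unadjusted p under 0.05. Of the retinoic acid receptors, Rara was lower and Rarb higher than in mutant PV in both groups, and Rarg was not called, at 0.575, 0.525 and 0.520 RPKM in TrkC:GFP, wild-type PV and mutant PV. Rara was at 1.09, 1.00 and 2.58 RPKM in TrkC:GFP, wild-type PV and mutant PV, and Rarb at 0.734, 0.921 and 0.224. Ctcf, which insulates chromatin domains, was higher in both, at 13.3, 12.3 and 8.34 RPKM. The Polycomb genes Ezh2, Eed, Suz12 and Bmi1 were not called. The Trithorax genes Mll1 and Mll2 were lower in wild-type PV than in mutant PV and were not called in TrkC:GFP. Mll1 was at 12.2, 9.39 and 13.6 RPKM in TrkC:GFP, wild-type PV and mutant PV, and Mll2 at 10.2, 8.72 and 12.5.

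Of 15 genes listed as neighbours of the clusters, 2 were higher in TrkC:GFP than in mutant PV and 3 in wild-type PV, beside the same 10.1% and 16.4% of all genes. They were Lnp and Hat1 in both comparisons and Ttll6 in the second. Distances of the listed genes from the clusters were not computed, so Hat1 is not placed beside HoxD. Genes beside HoxC were not called: Calcoco1 was at 7.25, 7.18 and 6.77 RPKM, Smug1 at 1.39, 1.43 and 1.19 and Cbx5 at 38.0, 36.6 and 32.2 in the 3 groups. Evx1 and Evx2, homeobox genes at the tail ends of HoxA and HoxD, stayed at the level of genes without reads, below 0.1 RPKM.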

How the data were processed

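RNA was amplified before poly-A selection and single-end sequencing, per the labels' protocols. The authors deposited 5 comparison tables of 23038 genes each, giving per gene a log2 fold change with its p-value, raw and adjusted, the log2 of the mean CPM, a flag and 1 RPKM value per group. The submitters' processing notes name the mm10 build and edgeR. The sources used here do not give the aligner, the counting program, the strand setting or the kind of edgeR test. The TrkC:GFP values stand under the name Rx3 in the tables and equal those given for samples 1 to 3 in another one.

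From these files were computed the Benjamini-Hochberg adjustment, which equalled the deposited adjusted p in each table, and the reads per library. For the latter, library totals and gene lengths were found for which each group RPKM is the mean of 3 values of (reads + 1), within a relative tolerance of 5e-14. The recovery was tested on simulated group values, where 39 of 39 members were found. Library RPKM, sums and shares keep the added read. The reads tested by the authors were not always those behind the RPKM: Hoxb1, Hoxc11 and Hoxd13 have a deposited fold change other than 0 where both groups have no reads. Amplified reads are not independent molecules, so floors cover counting error only.

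Calls are the authors' edgeR test, since no values per numbered sample were at hand for a fit. The members and gene lists were chosen with earlier results of these data known. Test results are given for members called in at least 1 of the first 3 comparisons, and for Meis1 and Meis2 of the lists. They are also given for Hoxb2, Hoxb9, Hoxc6, Hoxd8 and Hoxd9, not called there, and for Hotair and Mira. Other listed genes are given by counts, and some by name or group RPKM. Coordinates and promoters are from RefSeq (GRCm38.p6) and exon overlaps from GENCODE. Python 3.11.15, pandas 2.3.3, numpy 2.4.6, numba 0.67.0 and matplotlib 3.10.9 were used. Stricter thresholds, another adjustment, a filter on low values, recentring, another pseudocount and other paralog bands were tried. The values of 1 listed gene are not reported here.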

Additional observations from a re-analysis of the deposited data

How the results depend on the processing

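No paired analysis was possible because the tables hold 1 value per group and the recovered reads are not tied to replicate numbers. The authors' test was not refitted without a library, since reads per library were recovered for the members and some marker genes and not for the whole table. Of 30 alternative counts of called members, 23 stayed within 1.5 times the main count. Under a Bonferroni adjustment 6 members were called in TrkC:GFP against mutant PV, 5 in wild-type PV against mutant PV, 1 in wild-type PV against TrkC:GFP, 1 in TrkC:GFP against both PV groups and 8 in the joint comparison. In wild-type PV against TrkC:GFP 2 were called at an adjusted p under 0.01 and 2 by the authors' own flag. The shares of all genes called under these alternatives were not computed. Recentring subtracted medians between -0.10 and 0.082 on the log2 scale. The called member nearest to no change was Hoxc4, at -0.97 in wild-type PV against TrkC:GFP, so no sign could change.

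Log2 ratios of group sums and members were taken on the log2(RPKM + 1) scale. An alternative chosen after seeing the data let the shallowest mutant PV library, with few kidney reads, stand alone for its group. The 14 members called in TrkC:GFP against mutant PV and 13 of the 14 in wild-type PV then had the same direction of level, Hoxb4 being the exception at 0.037. All 14 and these 13 had every mutant PV library on 1 side of the other group. Their direction therefore could not change, and the count is no test of the kidney reads. Against mutant PV, the TrkC:GFP ratio of the HoxA sum was -0.12 (main -0.79), HoxB -1.13 (-1.52), HoxD -0.013 (0.22), paralogs 1 to 4 0.62 (0.29), 5 to 9 0.079 (-0.42) and 10 to 13 1.57 (2.04). In wild-type PV the ratios were -0.10 for HoxA (-0.77), -0.96 for HoxB (-1.36), -0.93 for HoxD (-0.70), and by paralogs -0.39 (-0.72), 0.094 (-0.41) and 1.24 (1.71). The direction of the HoxD sum in TrkC:GFP and of the paralog 5 to 9 sums in both groups thus rests on the deeper mutant PV libraries; the cause was not tested. Leaving out 1 library at a time kept the sign of every cluster and paralog sum, with HoxC between 2.62 and 3.09 in TrkC:GFP and 2.32 and 2.79 in wild-type PV, and HoxB between -1.69 and -1.37 and between -1.52 and -1.20. The shallowest mutant PV library holds 4510352 reads, which limits members of low level such as Hoxb4, at 2 reads there.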

Other observations

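RNAs that lie in the Hox clusters and are not Hox genes by name were read as well; these were picked with their values in view. Hotair, a long noncoding RNA of the HoxC cluster between Hoxc11 and Hoxc12, had 17, 7 and 11 reads in the TrkC:GFP libraries and none in the wild-type PV or mutant PV libraries. The authors' deposited table calls it higher in TrkC:GFP than in mutant PV (adjusted p = 9.6e-05 by edgeR) and lower in wild-type PV than in TrkC:GFP (adjusted p = 2.5e-05 by edgeR). Its neighbours Hoxc11, Hoxc12 and Hoxc13 also had most of their few reads in TrkC:GFP. Mira, a noncoding RNA near Hoxa6 and Hoxa7, had a group RPKM of 12.9 in TrkC:GFP, 15.3 in wild-type PV and 35.6 in mutant PV. In the authors' deposited table its log2 fold changes against mutant PV were -1.47 (adjusted p = 1.4e-05 by edgeR) and -1.22 (adjusted p = 7.5e-05 by edgeR).

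Other homeobox genes of sensory neurons also differed from mutant PV. Of 14 measured, which include Meis1 and Meis2 of the cofactors described above, 2 were higher and 5 lower in TrkC:GFP, and 2 were higher and 6 lower in wild-type PV. Of all genes, 10.1% and 16.4% were called in these comparisons. Prrxl1, which specifies nociceptive circuits, was at 3.90, 2.25 and 17.9 RPKM in TrkC:GFP, wild-type PV and mutant PV, and Isl2 at 4.89, 3.65 and 14.6. The sensory factor Pou4f1 was at 3.22, 3.29 and 9.002 RPKM, while Isl1, at 40.2, 37.3 and 30.3, was not called.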
